A study of Mus musculus with 128 samples.

Results

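Pklr, the gene of the pyruvate kinase of liver and red blood cells, lies on mouse chromosome 3 beside Hcn3, Clk2, Scamp3 and Fam189b. These 5 genes, of 35275 in the count table, are described here across 63 BALB/c and 65 C57BL6/J libraries of mouse liver RNA. They were chosen by name as neighbours on the chromosome, with earlier results of these libraries known. The values behind that choice are not recorded, so the fits and correlations below describe these genes and give no independent support. All 5 passed the filter on low counts and were tested, among 16886 genes.

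The study followed livers of wild-type male mice, 8 weeks old when bought, after a timed meal. Mice were trained for 1 week to eat chow in the evening, were then fasted for 21 h, and were killed before the meal (0 h) or 3, 6 or 12 h after chow was returned. With the chow they drank water that held 20% fructose, 20% sucrose or 20% glucose, or plain water. BALB/c mice (63 libraries) and C57BL6/J mice (65 libraries) each gave 13 groups: the 3 sugars and water at 3, 6 and 12 h, and water at 0 h. Groups held 5 libraries, except BALB/c fructose at 12 h and BALB/c glucose at 12 h, which held 4. Water was withheld from 4 pm and the meal was given at 7 pm. Chow was given at every time after 0 h, so a sugar group differed from its water group in the drink, and how much each mouse ate or drank is not stated in the labels. No group stayed unfed after 0 h, so differences between times cannot be told apart as effects of the meal or of clock time. The labels do not say that each library is a separate mouse, so the p-values measure the spread between libraries, which may in part be technical.

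Pyruvate kinase makes pyruvate and ATP from phosphoenolpyruvate in the last step of glycolysis. The liver form is textbook for its control by diet: its transcription rises with carbohydrate, largely through ChREBP (gene Mlxipl), a factor that senses sugar metabolites and binds paired E-box-like sites as a partner of Mlx, and with HNF4A. Hcn3 encodes a subunit of the hyperpolarization-activated cation channels, known from heart and nerve cells. Clk2 encodes a kinase that phosphorylates splicing factors, and in mouse liver it has been described as responsive to insulin and feeding. Scamp3 encodes a membrane protein of endosomes and the secretory route. The function of Fam189b, which encodes a membrane protein, is poorly described.

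The libraries held 18541545 to 43118895 counted reads (median 24131379). Levels are given as CPM (read counts scaled to the library's size, so that libraries compare). All 7 hepatocyte markers had a mean of at least 1 CPM over all libraries, and their summed level was 45962 to 132165 CPM per library. The table gives whole tissue, so fewer cells of a type and less RNA per cell cannot be told apart. C57BL6/J water 0 h replicate 2 had 160 CPM of Pck1, a gluconeogenic gene of the fasted liver, against 2760 to 5408 CPM in the other 9 libraries at 0 h. Its level of this gene thus goes against its label, and other genes were not used for this check. Markers of muscle exceeded 50 CPM in 6 of 10 libraries at 0 h, 26 of 40 at 3 h, 33 of 40 at 6 h and 1 of 38 at 12 h, and markers of kidney or adrenal exceeded 50 CPM in 6 libraries, all at 6 h. Markers of pancreas exceeded 50 CPM in 2, 5, 5 and 7 libraries at 0, 3, 6 and 12 h, with a highest sum of 1596 CPM at 6 h. A letter a ends the names of 34 libraries in the submitters' table and not those of the other 94. It is handled as a technical batch of unstated meaning.

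The order on chromosome 3 (mm10, coordinates of the deposited table) is Pklr at 89136142 to 89146784 on the plus strand, Hcn3 at 89146074 to 89160196 on the minus strand, Clk2 at 89164795 to 89176921, Scamp3 at 89177473 to 89182765 and Fam189b at 89183143 to 89189295, the last 3 on the plus strand. Pklr and Hcn3 face each other and their 3′ ends overlap by 711 bp, at 89146074 to 89146784. In GENCODE M21 all 711 bp are exonic in both genes and make up 22.0% of the exon bases of Pklr and 17.1% of those of Hcn3. Hcn3 and Clk2 are 4598 bp apart with their 5′ ends facing each other, Clk2 and Scamp3 551 bp, and Scamp3 and Fam189b 377 bp. Whether the libraries keep strand, and how reads in the overlap were assigned, is not stated in the labels. Reads from these 711 bp cannot be told apart between the genes if strand was not used, which bears on each joint result of Pklr and Hcn3 below. The share of their counts that comes from the overlap, and transcription beyond the end of either gene, were not tested, since the table holds a single count per gene.

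RefSeq promoters (GRCm38.p6; 250 bases before to 50 after the start) were found for 3 of the 5 genes: Pklr with 2 starts that are 481 bp apart, Clk2 and Fam189b. Entries were not found for Hcn3 and Scamp3. They are shown because Pklr is the classical promoter of carbohydrate response, and Clk2 is the neighbour that holds an E-box. The upstream start of Pklr lies in chr3:89135892-89136191, the downstream start in chr3:89136373-89136672 and the start of Clk2 in chr3:89164545-89164844, all read on the plus strand. Capitals mark the carbohydrate response pattern, CACGNG and CNCGTG spaced by 5 bases, or a plain E-box, CACGTG.
Pklr upstream start: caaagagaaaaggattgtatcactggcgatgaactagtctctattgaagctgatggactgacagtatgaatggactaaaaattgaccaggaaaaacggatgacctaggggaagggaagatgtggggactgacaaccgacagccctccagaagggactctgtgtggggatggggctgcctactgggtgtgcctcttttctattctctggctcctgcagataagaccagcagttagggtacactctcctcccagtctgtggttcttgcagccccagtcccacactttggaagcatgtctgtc
Pklr downstream start: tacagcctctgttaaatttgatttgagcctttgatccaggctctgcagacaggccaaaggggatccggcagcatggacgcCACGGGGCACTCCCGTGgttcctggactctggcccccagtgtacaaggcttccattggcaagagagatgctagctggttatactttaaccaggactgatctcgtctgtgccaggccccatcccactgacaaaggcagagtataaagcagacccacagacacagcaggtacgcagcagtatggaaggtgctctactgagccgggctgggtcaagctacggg
Clk2 start: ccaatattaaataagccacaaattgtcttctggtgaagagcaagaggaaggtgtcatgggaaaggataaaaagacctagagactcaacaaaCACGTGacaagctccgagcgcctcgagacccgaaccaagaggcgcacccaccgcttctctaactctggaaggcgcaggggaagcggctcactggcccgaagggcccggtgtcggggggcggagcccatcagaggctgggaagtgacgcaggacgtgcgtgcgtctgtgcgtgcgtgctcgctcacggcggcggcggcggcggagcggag
The carbohydrate response pattern occurred once among these promoters, as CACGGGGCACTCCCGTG at -170 to -154 from the downstream start of Pklr. It occurred in 15 of 32851 promoters of this length (0.0457%), counted on both strands, on which it reads alike. The plain E-box, which also reads alike on both strands, stood at -159 to -154 of Clk2 and in 7.15% of all promoters. It overlapped no carbohydrate response pattern in Clk2. Neither pattern was in the upstream promoter of Pklr or in that of Fam189b. A match describes letters and is not a site shown to be used.

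Pklr was the most abundant of the 5 and Fam189b the least. On the authors' scale per length (FPKM) the median level over libraries was 44.3 for Pklr, 18.7 for Scamp3, 11.9 for Clk2, 5.29 for Hcn3 and 0.555 for Fam189b. Pklr ranged over 9.26 to 449 CPM (median 130.0), and Hcn3 over 1.37 to 131 CPM (median 20.9). Clk2 ranged over 19.0 to 89.7 CPM, Scamp3 over 18.4 to 37.0 CPM and Fam189b over 0.493 to 5.21 CPM. The same library, BALB/c water 0 h replicate 1, was lowest for both Pklr and Hcn3, and C57BL6/J fructose 3 h replicate 5 was highest for both. The spread between libraries of a group (SD of log2 CPM) was 0.90 for Pklr, 0.94 for Hcn3, 0.65 for Fam189b, 0.46 for Clk2 and 0.16 for Scamp3.

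**Figure D1:**
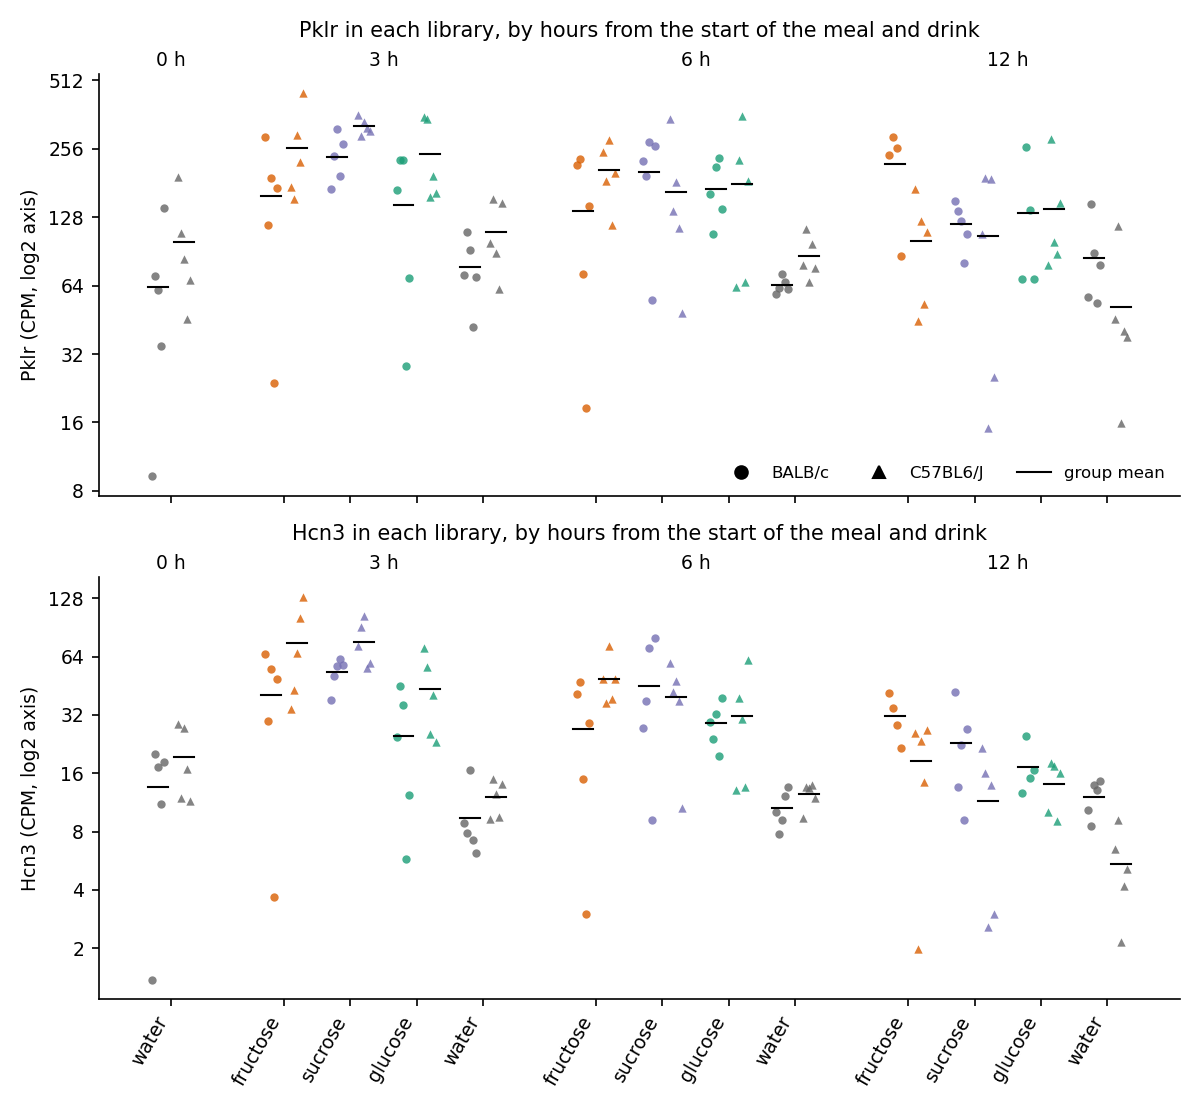
Pklr (top) and Hcn3 (bottom) in each library, as CPM on a log2 axis, by hours after the meal and drink (circles BALB/c, triangles C57BL6/J, bars the mean of each group). At 3 h all 10 sucrose libraries lie above the water libraries of their strain for both genes, and BALB/c fructose replicate 4 lies low for both.

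At 3 h, the sugar drinks and water were set against each other to ask what the sugar adds to a chow meal. Pklr and Hcn3 rose with fructose and with sucrose, and Hcn3 also rose with glucose. In BALB/c livers Pklr had 287, 118.5, 190.3, 24.0 and 173 CPM with fructose, 170.5, 238, 312, 194 and 268 CPM with sucrose and 169, 228, 228, 28.3 and 69.45 CPM with glucose (replicates 1 to 5), against 71.2, 109.9, 92.0, 42.2 and 70.0 CPM with water. In C57BL6/J livers Pklr had 173, 154, 293, 224 and 449 CPM with fructose, 362, 291, 337, 317 and 308 CPM with sucrose and 354.5, 347, 157, 194 and 163 CPM with glucose, against 98.9, 155, 89.1, 61.75 and 148 CPM with water. Sucrose and water libraries did not overlap in either strain. BALB/c replicate 4 was the lowest of its group with fructose, with glucose and with water.

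Hcn3 covered a wider range than Pklr at 3 h. In BALB/c livers Hcn3 had 66.1, 29.65, 55.1, 3.69 and 49.0 CPM with fructose, 38.4, 51.1, 57.2, 62.3 and 57.9 CPM with sucrose and 24.7, 45.1, 36.0, 5.755 and 12.4 CPM with glucose, against 8.86, 7.85, 16.6, 7.27 and 6.23 CPM with water. In C57BL6/J livers Hcn3 had 34.5, 43.0, 67.0, 101 and 131 CPM with fructose, 72.3, 90.9, 103, 55.7 and 59.4 CPM with sucrose and 70.7, 56.8, 25.4, 40.5 and 23.1 CPM with glucose, against 9.32, 14.9, 12.45, 9.55 and 14.1 CPM with water. In C57BL6/J all 15 sugar libraries were above all 5 water libraries, and in BALB/c replicate 4 with fructose and with glucose lay below all 5 water libraries and glucose replicate 5 lay among them.

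In the fit of all genes (edgeR's quasi-likelihood test, Benjamini-Hochberg adjustment within a contrast, called at an adjusted p under 0.05, mean of both strains), 2 of the 5 genes were called with fructose at 3 h, where 6.71% of all genes were. Pklr was higher by 1.135 ± 0.37 on the log2 scale (SE, adjusted p = 0.0457, higher in 9 of 10 libraries than the mean of their water group) and Hcn3 by 2.38 ± 0.38 (adjusted p = 4.9e-06, 9 of 10). With sucrose at 3 h the same 2 genes were called, where 2.92% of all genes were: Pklr at 1.58 ± 0.38 (adjusted p = 0.00647, 10 of 10) and Hcn3 at 2.59 ± 0.38 (adjusted p = 1.41e-06, 10 of 10). With glucose at 3 h, where 0.19% of all genes were called, Hcn3 was called at 1.63 ± 0.37 (adjusted p = 0.0229, 9 of 10), and Pklr stood at 1.02 ± 0.37 without being called (adjusted p = 0.53, 8 of 10). The fructose call of Pklr was lost with no filter on low counts (adjusted p = 0.0759), in the libraries without the name suffix (1.198, adjusted p = 0.16) and when replicate 1, 3, 4 or 5 was left out of every group (0.99 to 1.13, adjusted p = 0.05998 to 0.196), its sucrose call in the libraries without the suffix (adjusted p = 0.0501) and without replicate 3 (1.51, adjusted p = 0.070), and the glucose call of Hcn3 in the libraries without the suffix (1.445, adjusted p = 0.502) and without replicate 1, 2, 3 or 5 (adjusted p = 0.05105 to 0.551). The fructose and sucrose calls of Hcn3 held in 14 of 14 alternative settings. Clk2, Scamp3 and Fam189b lay between -0.21 and 0.20 with the 3 sugars at 3 h, and none was called.

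**Figure D2:**
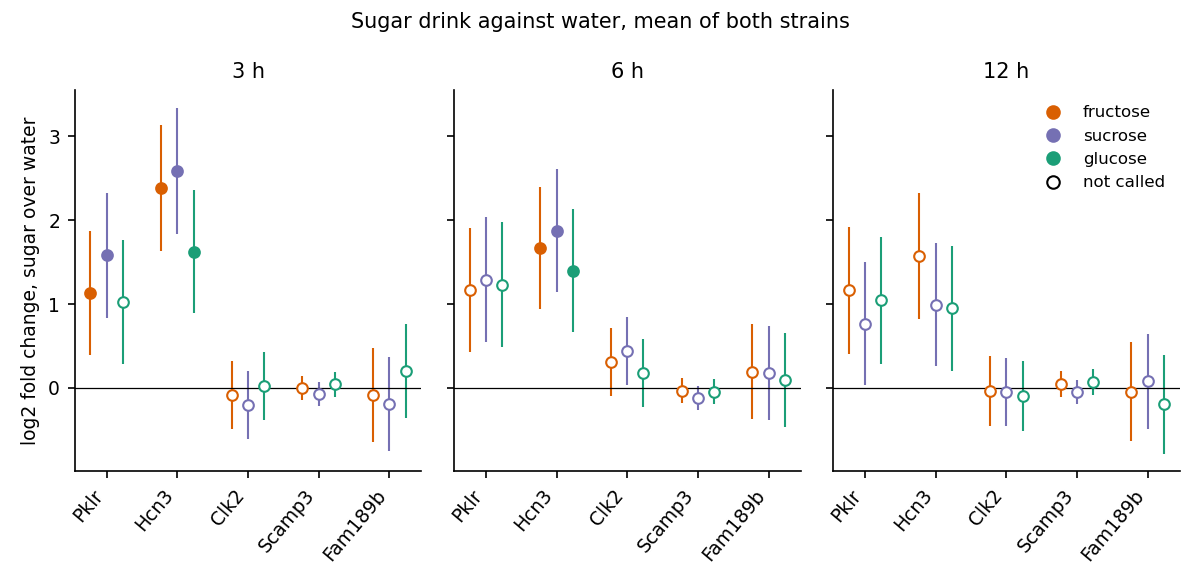
Log2 fold change of each of the 5 genes with each sugar over water at 3, 6 and 12 h, as the mean of both strains with its 95% interval (filled points: adjusted p under 0.05). Hcn3 is called in 6 of the 9 contrasts and Pklr in 2, and Clk2, Scamp3 and Fam189b in none.

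At 6 h the medians of both genes with sugar lay above those with water, with ranges that overlapped, and Hcn3 was called with each sugar. Over both strains Hcn3 had a median of 39.75 CPM with fructose (2.98 to 72.5), 39.9 CPM with sucrose (9.20 to 79.4) and 29.9 CPM with glucose (13.1 to 61.8), against 12.1 CPM with water (7.76 to 13.9; 10 libraries each). All 10 glucose libraries were above the mean of their water group, 9 of 10 fructose libraries and 8 of 10 sucrose libraries. Its log2 fold change was 1.67 ± 0.37 with fructose (edgeR adjusted p = 0.00634), 1.88 ± 0.37 with sucrose (adjusted p = 0.00139) and 1.40 ± 0.37 with glucose (adjusted p = 0.037), in contrasts that called 1.23%, 1.14% and 0.906% of all genes in that order of sugars. The fructose call was lost without the 6 libraries that held kidney or adrenal transcripts (1.525, adjusted p = 0.0548) and without the suffix libraries (1.55, adjusted p = 0.137), and the glucose call was lost in both settings too (1.19, adjusted p = 0.181, and 1.32, adjusted p = 0.158). Leaving out a replicate number kept the fructose call in 2 of 5 cases, the glucose call in 1 of 5 and the sucrose call in 5 of 5. The part of those transcripts in the result was not tested.

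Pklr at 6 h had a median of 193 CPM with fructose (18.5 to 279), 188.5 CPM with sucrose (48.45 to 345) and 174 CPM with glucose (63.2 to 355), against 69.1 CPM with water (58.65 to 114). The water libraries lay close together and the sugar libraries spread over a wide range, reaching below them with fructose and sucrose. C57BL6/J fructose libraries (118 to 279 CPM) lay above C57BL6/J water libraries (66.3 to 114 CPM). BALB/c glucose libraries (108 to 233 CPM) lay above BALB/c water libraries (58.65 to 71.8 CPM). The other sugar groups overlapped the water group of their strain. In all, 9 of 10 fructose, 8 of 10 sucrose and 8 of 10 glucose libraries were above the mean of their water group. Pklr stood at 1.17 ± 0.37 with fructose (edgeR adjusted p = 0.1085), 1.29 ± 0.37 with sucrose (adjusted p = 0.058) and 1.23 ± 0.37 with glucose (adjusted p = 0.0869) and was not called. These values are close to those at 3 h, and DESeq2 called all 3 (adjusted p = 0.0498, 0.0221 and 0.0331 in the same order of sugars).

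At 12 h none of the 5 genes was called with any sugar, and few genes were called at all: 0.00592% with fructose, 0.00592% with sucrose and 0.0651% with glucose. Hcn3 had a median of 25.8 CPM with fructose (1.97 to 41.55, 9 libraries), 15.0 CPM with sucrose (2.58 to 41.8) and 16.0 CPM with glucose (9.04 to 24.8, 9 libraries), against 8.86 CPM with water (2.15 to 14.65). BALB/c fructose libraries (21.6 to 41.55 CPM) lay above BALB/c water libraries (8.58 to 14.65 CPM), and the other sugar groups overlapped the water group of their strain. In all, 8 of 9 fructose, 7 of 10 sucrose and 9 of 9 glucose libraries were above the mean of their water group. Hcn3 stood at 1.57 ± 0.38 with fructose (edgeR adjusted p = 0.236), 0.99 ± 0.37 with sucrose and 0.95 ± 0.38 with glucose, the last 2 with adjusted p of 1 and 0.639. Pklr had a median of 124 CPM with fructose (44.9 to 289), 116 CPM with sucrose (15.1 to 190) and 99.4 CPM with glucose (68.2 to 282), against 55.35 CPM with water (16.0 to 146). It stood at 1.165, 0.77 and 1.05 with the 3 sugars, with an SE of 0.38, 0.37 and 0.38.

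Across the 9 sugar contrasts Hcn3 was called higher in 6 and Pklr in 2. At least 1 of the 9 called 8.84% of all genes, and 6 or more called 4 genes higher (0.0237%): Hcn3, Fgf21, Lhx6 and Lrrc28, named after their values were seen. The sugar contrasts of a time share their water libraries. None of the 5 genes was called between any pair of sugars, where at least 1 of the 9 pairs called 2.59% of all genes. Hcn3 at 3 h was higher with sucrose than with glucose by 0.96 ± 0.36 (95% interval 0.25 to 1.67) and with fructose than with glucose by 0.76 ± 0.36 (0.04 to 1.47), both uncalled with edgeR adjusted p of 0.325 and 0.345. For Pklr the fructose minus glucose difference at 3 h was 0.11, with an interval of -0.62 to 0.84.

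After the meal with plain water the 2 genes took different courses, in which meal and clock time cannot be told apart. At 0 h Pklr had 9.26, 70.3, 61.3, 34.6 and 140.2 CPM in BALB/c livers and 192, 109, 83.65, 45.8 and 67.65 CPM in C57BL6/J livers, and with water at 3 h its range of 42.2 to 155 CPM lay within the range at 0 h. At 0 h Hcn3 had 1.37, 20.2, 17.3, 11.1 and 18.3 CPM in BALB/c livers and 28.7, 11.9, 27.5, 16.9 and 11.5 CPM in C57BL6/J livers. With water Hcn3 had 6.23 to 16.6 CPM at 3 h, 7.76 to 13.9 CPM at 6 h and 2.15 to 14.65 CPM at 12 h. Hcn3 was below the mean of its strain at 0 h in 9 of 10 libraries at 3 h, 10 of 10 at 6 h and 8 of 10 at 12 h. Against 0 h, Pklr stood at 0.22 ± 0.37, -0.09 ± 0.37 and -0.26 ± 0.37 at 3, 6 and 12 h and was not called. Hcn3 stood at -0.61 ± 0.37 and -0.50 ± 0.36 at 3 and 6 h and fell by 1.00 ± 0.37 on the log2 scale at 12 h (edgeR adjusted p = 0.0469). None of the 5 genes was called at 3 h, where 25.4% of all genes were, and 1 was called at each of 6 h (28.8% of all genes) and 12 h (17.6%).

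In C57BL6/J livers Hcn3 had 6.53, 9.15, 2.15, 4.21 and 5.11 CPM with water at 12 h, all below the 5 libraries at 0 h. BALB/c livers had 10.4, 8.58, 14.0, 13.0 and 14.65 CPM at 12 h, within the range at 0 h. The change was -1.83 in C57BL6/J and -0.17 in BALB/c, and the difference of 1.66 ± 0.74 was not called (edgeR adjusted p = 0.498). The call at 12 h was lost in the libraries without the suffix (-1.14, adjusted p = 0.083), without a filter on low counts (adjusted p = 0.0724) and when each replicate number was left out in turn (-1.05 to -0.79).

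From 3 h to 12 h, times that also differ in clock time, the levels with sugar came down, Hcn3 more often than Pklr in the calls. Hcn3 fell by 1.20 ± 0.38 on the log2 scale with fructose (edgeR adjusted p = 0.0107), 1.98 ± 0.37 with sucrose (adjusted p = 1.02e-05) and 1.065 ± 0.38 with glucose (adjusted p = 0.0246), and it stood at -0.39 ± 0.37 with water. Pklr fell by 1.30 ± 0.37 with sucrose (adjusted p = 0.0049) and stood at -0.45, -0.46 and -0.48 with fructose, glucose and water. Scamp3 fell with all 4 drinks, by 0.26, 0.29, 0.28 and 0.31 with fructose, sucrose, glucose and water (SE 0.07 to 0.08, adjusted p = 0.00561, 0.00146, 0.00268 and 0.00047). Fam189b fell by 0.93 ± 0.30 with glucose (adjusted p = 0.0117). These counts of 2, 3, 3 and 1 of the 5 genes stand beside 26.1% of all genes with fructose, 26.1% with sucrose, 27.7% with glucose and 29.8% with water. Of 13 alternative settings, the Hcn3 call held in 10 with fructose, 13 with sucrose and 9 with glucose. The Pklr call with sucrose held in 12 and the Fam189b call with glucose in 10. The Scamp3 call held in 11 with fructose and in 13 with each other drink.

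None of the 5 genes was called between the strains. BALB/c minus C57BL6/J was -0.15 ± 0.15 for Pklr, -0.07 ± 0.14 for Hcn3, 0.0049 ± 0.081 for Clk2, 0.03 ± 0.03 for Scamp3 and -0.06 ± 0.11 for Fam189b on the log2 scale, averaged over 13 drinks and times, while 55.3% of all genes were called between the strains. None of the 5 genes was called in any of the 12 interactions of strain with feeding or sugar, in which 0.758% of all genes were called at least once. The rise of Hcn3 with sucrose at 3 h was 2.515 ± 0.54 in BALB/c and 2.66 ± 0.54 in C57BL6/J, and that of Pklr 1.62 ± 0.53 and 1.55 ± 0.53.

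Library by library, Hcn3 followed Pklr. Over all libraries of both strains the log2 CPM of the 2 genes had a Pearson r of 0.883 (Spearman rho 0.859; r = 0.867 without the 2 libraries farthest from the median of Pklr) and a slope of 1.05. Among the other 16885 genes tested, Hcn3 ranked 1 by its r with Pklr, and Pklr ranked 1 by its r with Hcn3. The median gene had an r of -0.00162 with Pklr, and the top percent of genes began at 0.527. The r was 0.891 within BALB/c, 0.88 within C57BL6/J and 0.915 in the 94 libraries without the name suffix.

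The tie was also there between libraries of the same group, where strain, drink and time are the same. With the mean of each group subtracted, r was 0.831 over all libraries (rho 0.762; 0.801 without the 2 farthest libraries), and Hcn3 ranked 3 for Pklr and Pklr ranked 2 for Hcn3 among 16885 genes. Within single groups r was above 0 in 23 of 26, with a median of 0.803 and a range of -0.479 to 0.998. The library highest for Pklr was also highest for Hcn3 in 13 of 26 groups, and the lowest was the same in 13 of 26. BALB/c fructose 3 h replicate 4 is an example, with 24.0 CPM of Pklr and 3.69 CPM of Hcn3, in a group whose other 4 libraries had 118.5 to 287 and 29.65 to 66.1 CPM. For Clk2, Scamp3 and Fam189b, the library highest for Pklr was also highest in 0, 6 and 1 of 26 groups. The lowest was the same in 2, 5 and 3 of 26. These are descriptions over libraries that share their group, and Pklr and Hcn3 share the overlap above.

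**Figure D3:**
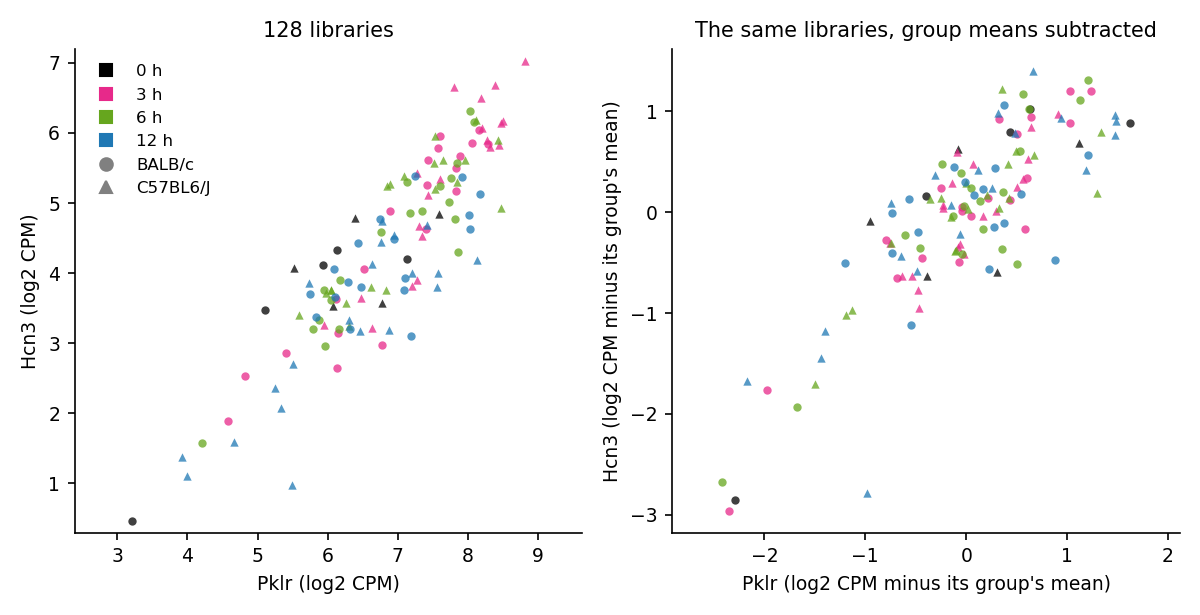
Hcn3 against Pklr in log2 CPM over all libraries (left), and the same with the mean of each of the 26 groups subtracted (right), coloured by hours after the meal (circles BALB/c, triangles C57BL6/J). The points lie along a line in both, with r = 0.883 and r = 0.831.

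The tie was looser on some axes. By time r was 0.923 at 3 h, 0.895 at 6 h and 0.823 at 12 h, while at 0 h it was 0.862 over 10 libraries (rho 0.758) and 0.299 without the 2 libraries farthest from the median of Pklr. By drink it was 0.91 with fructose, 0.909 with sucrose, 0.809 with glucose and 0.74 with water (rho 0.461), the last 0.463 without the 2 farthest libraries. At 0 h the size of r thus rests on 2 libraries with extreme levels, and with water it was smaller without them. Of the marker lists, the summed endothelial markers (6 of 6 found, 146 to 269 CPM) had the strongest relation with both genes over all libraries, with an r of -0.514 for Pklr and -0.413 for Hcn3 (-0.399 and -0.199 with group means subtracted), and their part in the relation of the genes was not tested.

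The genes most like Pklr over all libraries, after Hcn3, were Dak (r = 0.846; current symbol Tkfc, which phosphorylates the triose formed from fructose), Enpep (0.837, a peptidase), Xpot (0.733, a tRNA exporter) and Acaca (0.727, acetyl-CoA carboxylase). With group means subtracted they were Pdk1 (0.853, a kinase that holds back pyruvate dehydrogenase), Gpd2 (0.833, mitochondrial glycerol-3-phosphate dehydrogenase), Hcn3, Slc2a2 (0.811, the liver glucose transporter GLUT2) and Pygl (0.791, liver glycogen phosphorylase). The genes most like Hcn3 after Pklr were Dak (0.872), Lrrc28 (0.772), Pdhb (0.752, a subunit of pyruvate dehydrogenase) and Ddhd2 (0.732, a lipase), and with group means subtracted Dak (0.838), Pklr, Khk (0.705, fructokinase), Pdk1 (0.686) and Thrsp (0.678, a lipogenic protein). Of the genes named here, Hcn3 and Pklr thus share Dak, on chromosome 19, over all libraries. With group means subtracted they share Pdk1, on chromosome 2.

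Whether both genes change by the same factor was asked with the ratio of their raw counts, which needs no scaling between libraries. Hcn3 reads per 100 Pklr reads ranged over 4.39 to 45.1, a range of 10.3-fold, with a median of 18.2. The mean of both strains was 26.6 with fructose, 23.5 with sucrose and 17.6 with glucose at 3 h, against 12.2 with water at 3 h. It was 21.9, 23.3 and 19.3 with the 3 sugars at 6 h, against 15.7 with water, and 17.2, 15.8 and 13.7 at 12 h, against 14.2 with water. At 0 h it was 23.0, with libraries from 10.9 to 36.8. The ratio was therefore high before the meal and with fructose and sucrose at 3 and 6 h. It was lower with water after the meal and with all 3 sugars at 12 h.

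**Figure D4:**
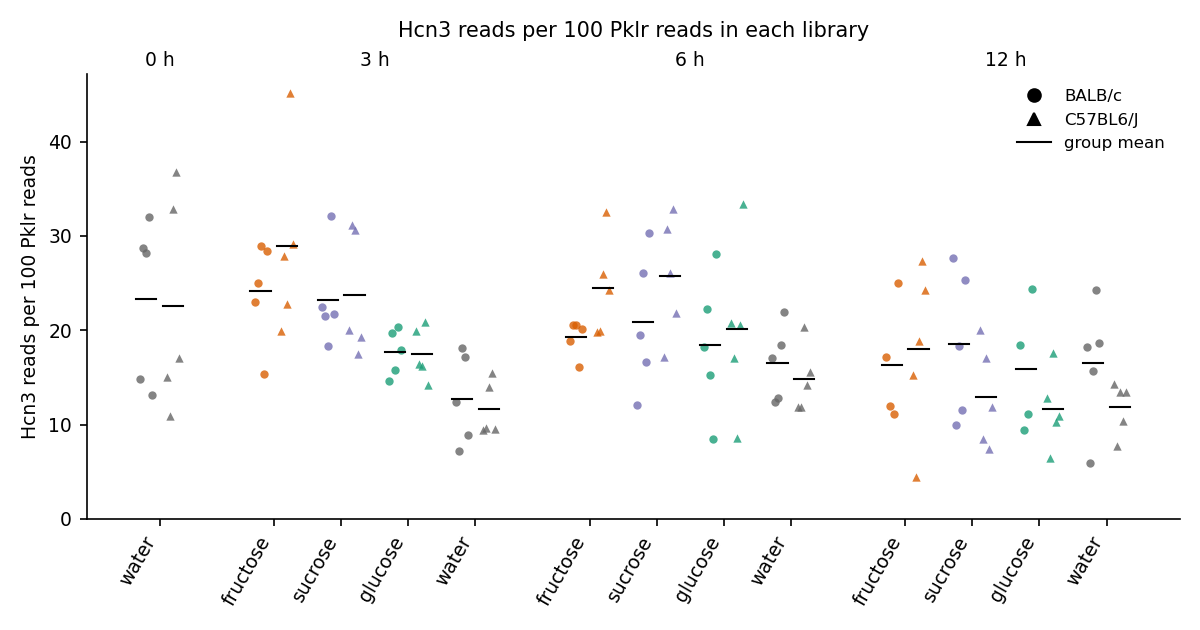
Hcn3 reads per 100 Pklr reads in each library, by hours after the meal and drink (circles BALB/c, triangles C57BL6/J, bars the mean of each group). At 3 h the fructose mean of both strains is 26.6 and the water mean 12.2.

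At 3 h the ratio was higher with each sugar than with water, in 10 of 10 libraries against the mean of their water group. The log2 difference was 1.135 ± 0.20 with fructose (2.20-fold; adjusted p = 0.000614 in an exact two-sided permutation test within strain, adjusted over 13 comparisons), 0.97 ± 0.19 with sucrose (adjusted p = 0.000409; the raw p of 3.15e-05 is the smallest that the 63504 arrangements can give) and 0.58 ± 0.17 with glucose (adjusted p = 0.00993 in the exact test). At 6 h it was higher with fructose by 0.49 ± 0.13 (exact permutation, adjusted p = 0.00993, 9 of 10) and with sucrose by 0.54 ± 0.18 (adjusted p = 0.024, 9 of 10), and with glucose it stood at 0.21 ± 0.24. With water at 3 h the ratio was lower than at 0 h in 10 of 10 libraries, with a log2 difference of -0.85 ± 0.26 (exact permutation, adjusted p = 0.0125). At 6 and 12 h with water it stood at -0.46 ± 0.24 and -0.67 ± 0.29 (exact permutation, adjusted p = 0.1075 and 0.0546). At 12 h the sugars stood between -0.05 and 0.22, and the strains differed by 0.05 ± 0.09 (permutation, adjusted p = 0.696). In the libraries without the suffix the 3 h difference with glucose (0.43, exact permutation, adjusted p = 0.0728) and those at 6 h with fructose (0.44) and sucrose (0.49) no longer passed, with adjusted p of 0.0672 and 0.0816. Without replicate 2 of every group, the differences with water at 3 h (-0.79), with glucose at 3 h (0.45) and with fructose at 6 h (0.43) did not pass either (exact permutation, adjusted p = 0.05837 for each), nor did sucrose at 6 h without replicate 2, 3 or 4 (0.43 to 0.55, adjusted p = 0.06014 to 0.1516).

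Clk2, the next gene, did not follow Pklr. It had a median of 37.55 CPM with fructose, 31.5 CPM with sucrose and 36.5 CPM with glucose at 3 h, against 39.2 CPM with water, with ranges that overlapped (24.1 to 66.55, 26.9 to 59.3, 19.0 to 74.5 and 24.6 to 89.7 CPM in the same order). Clk2 was called in none of the 9 sugar contrasts, in which it stood between -0.21 and 0.44. The highest, with sucrose at 6 h, had an unadjusted p of 0.0348 in edgeR. Within groups Clk2 went against Pklr: r was above 0 in 3 of 26 groups with a median of -0.717, and with group means subtracted r was -0.523. Its paralogs had similar values, -0.574 for Clk1, -0.437 for Clk3 and -0.527 for Clk4. With the summed hepatocyte markers (7 of 7 found) Clk2 had an r of -0.837, Pklr of 0.435 and Hcn3 of 0.137, each with group means subtracted, and with the mitochondrial share of counts Clk2 had 0.508. The part of these in the relation of Clk2 and Pklr was not tested.

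Fam189b and Clk2 moved together between libraries although Scamp3 lies between them, with r = 0.753 over all libraries and 0.8 with group means subtracted. Clk2 was the gene ranked 3 of 16885 by likeness to Fam189b with group means subtracted, and Fam189b ranked 342 for Clk2. Fam189b had an r of -0.724 with the hepatocyte markers, whose part here was not tested either. Its counts were low, 12 to 134 reads per library. It had a median of 1.70 CPM with fructose, 1.64 CPM with sucrose and 1.73 CPM with glucose at 3 h, against 1.90 CPM with water, and was called in none of the 9 sugar contrasts (-0.20 to 0.20).

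Scamp3 had the smallest spread between libraries of a group among the 5, and its group means differed by at most 1.431-fold, close to the 1.435-fold of Clk2. At 3 h its median was 30.3 CPM with fructose, 28.7 CPM with sucrose and 30.5 CPM with glucose, against 29.8 CPM with water, and it was called in none of the 9 sugar contrasts (-0.12 to 0.07). With water at 6 h it rose by 0.19 ± 0.07 on the log2 scale against 0 h (edgeR adjusted p = 0.0456, 9 of 10 libraries), with a median of 29.9 CPM at 6 h and 26.6 CPM at 0 h. That call held in 4 of 14 alternative settings. An antisense gene, Gm16069, lies inside Scamp3 with a mean of 0.0325 CPM, and if strand was not used its reads cannot be told apart from those of Scamp3. Scamp3 had an r of 0.116 with Pklr and 0.228 with Hcn3.

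In the wider region, 28 genes of the table have their lower coordinate within 250 kb of that of Pklr, and 23 were tested. Hcn3 was alone among the 22 neighbours tested in being called with any sugar, beside 8.84% of all genes called in at least 1 of the 9 sugar contrasts. The r of the other 21 with Pklr ran from -0.52 for Dap3 to 0.415 for Fdps, and from -0.569 to 0.422 with group means subtracted. Fdps (farnesyl diphosphate synthase), the nearest of these named on the other side of Pklr, lies at 89093592 to 89101967 on the minus strand.

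**Figure D5:**
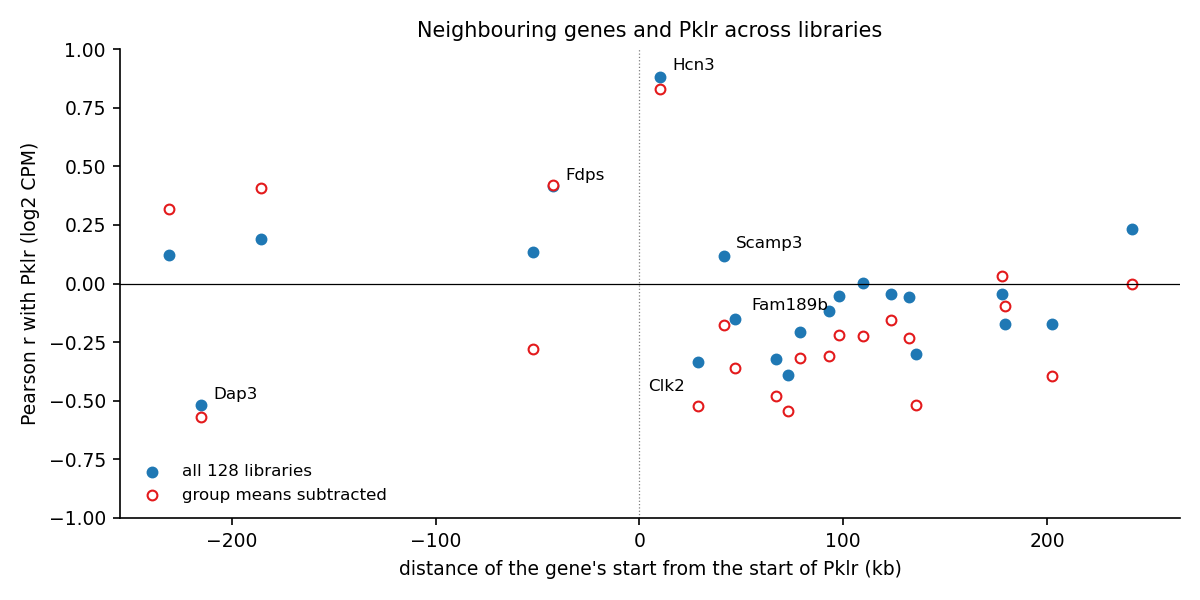
Pearson r with Pklr of the 22 tested genes within 250 kb, against the distance of their start (the lower coordinate) from that of Pklr, over all libraries (filled) and with group means subtracted (open). Hcn3 stands at 0.883 and 0.831, and all others lie between -0.569 and 0.422.

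In the channel family of Hcn3, Hcn2 and Hcn4 had low levels in these livers. Median FPKM was 5.29 for Hcn3, against 0.17 for Hcn2 and 0 for Hcn4, which did not pass the filter. Hcn2 stood between -0.07 and 0.70 in the sugar contrasts and was not called, and its r with Pklr was 0.0993. Markers of neurons, which use these channels, summed to 1.65 to 35.2 CPM, with 1 of 7 above a mean of 1 CPM. The CLK family was called in none of the 9 sugar contrasts (4 of 4 tested), nor was the SCAMP family (4 of 5 tested; Scamp4 had a median of 0.0275 FPKM).

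Pklr was part of a wider group of genes known as ChREBP targets, all 21 of which were tested. With fructose, sucrose and glucose at 3 h, 12, 15 and 5 of the 21 rose and none fell, where 6.71%, 2.92% and 0.19% of all genes were called, with median log2 fold changes of 0.76, 1.09 and 0.82, beside medians of all genes of 0.0017, -0.0065 and 0.0012. At 6 h 7, 9 and 4 rose (medians 0.74, 0.83 and 0.70), where 1.23%, 1.14% and 0.906% of all genes were called. At 12 h 1, 0 and 0 rose, where 0.00592%, 0.00592% and 0.0651% of all genes were called. With sucrose at 3 h the hormone gene Fgf21 rose by 4.195 ± 0.55, the signalling regulator Rgs16 by 4.02 ± 0.63, Dak by 1.345 ± 0.22 and Acaca by 1.13 ± 0.20 (edgeR adjusted p = 4.55e-08, 7.26e-06, 1.91e-05 and 7.17e-05). G6pc, which releases glucose from the liver and so runs against glycolysis, rose among them with fructose (1.615 ± 0.30, adjusted p = 6.66e-05). The list was chosen with results known and holds Pklr itself. The counts depended on the libraries: 7, 8 and 1 rose at 3 h and 3, 9 and 2 at 6 h in those without the suffix. Leaving out a replicate number gave 7 to 11 with fructose, 10 to 15 with sucrose and 0 to 5 with glucose at 3 h (7 with fructose without replicate 3, 0 with glucose without replicate 2), and 4 to 8, 6 to 9 and 1 to 4 at 6 h (1 with glucose without replicate 3 or 5). DESeq2 gave 8 with glucose at 6 h.

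Of 19 genes of glycolysis, 3 rose with fructose at 3 h and 3 with sucrose, and none with glucose, where 6.71%, 2.92% and 0.19% of all genes were called. Pklr and Gpi1 (glucose-6-phosphate isomerase) were among them with both sugars. Gpi1 stood at 0.75 ± 0.14 with fructose and 0.68 ± 0.14 with sucrose. At 6 h Gpi1 rose with fructose and sucrose. None of the 19 fell with a sugar against water. The median of the list was 0.18, 0.14 and 0.17 at 3 h with fructose, sucrose and glucose.

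Of 12 genes of factors known to act on the Pklr promoter, Usf2 (an E-box factor) rose with fructose by 0.29 ± 0.09 at 3 h and 0.31 ± 0.09 at 6 h (edgeR adjusted p = 0.0282 and 0.0452). Srebf1, the gene of the lipogenic factor SREBP1, rose with sucrose by 0.67 ± 0.19 and with glucose by 0.82 ± 0.19 at 3 h, and by 0.77 ± 0.19 and 0.70 ± 0.19 at 6 h (adjusted p = 0.0244, 0.0244, 0.0171 and 0.0411). At 3 h 1 of the 12 was thus called with each of fructose, sucrose and glucose, where 6.71%, 2.92% and 0.19% of all genes were. At 6 h it was again 1 with each, where 1.23%, 1.14% and 0.906% of all genes were called. None was called with a sugar against water at 12 h, and none fell in the sugar contrasts. Mlxipl, the gene of ChREBP, stood at 0.61 ± 0.22, 0.37 ± 0.22 and 0.41 ± 0.22 with fructose, sucrose and glucose at 3 h and was not called. Over libraries Mlxipl had an r of -0.0271 with Pklr and, with group means subtracted, of -0.417. These are levels of messenger RNA and not of active protein.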

How the data were processed

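Liver RNA of 128 mouse samples was sequenced as paired reads of 150 bp. Per the submitters' processing notes, CASAVA, STAR 2.5, HTSeq 0.6.1 and DESeq2 were used with mm10 (GRCm38); the strand setting of the counting is not stated there. The authors deposited raw read counts per gene (35275 genes, 8695 of them with no read in any library) and FPKM, which equal count over gene length and column total for 100% of values to a tolerance of 1e-6. Groups come from the labels for strain, drink and time.

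The members and gene lists were chosen with earlier results of these data known. From the counts, a single model with a mean for each of 26 groups was fitted with edgeR 4.0.16 in R 4.3.3 (TMM factors, robust quasi-likelihood test with 102 residual degrees of freedom, filterByExpr, 16886 genes tested), with Benjamini-Hochberg adjustment in each contrast and a threshold of 0.05. Sugar and time contrasts are means of both strains. The SE is the log2 fold change over the root of F. CPM in the text use TMM library sizes, and correlations use log2 CPM with a prior count of 1. The Hcn3 to Pklr ratio was tested on log2 counts with a pseudocount of 0.5 by exact two-sided permutation within strain (100000 permutations between strains), adjusted over 13 comparisons. Lists were matched by symbol or, through gene IDs, by current symbol. Scripts were tested on simulated data.

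The text names the 5 genes in every contrast, the 5 genes with the highest r with Pklr and with Hcn3 (mean CPM of at least 1), neighbours within 250 kb, up to 4 list members by smallest p, and family members by level; some genes that the rule names are not reported here. Alternatives were DESeq2 1.42.0, edgeR with RLE scaling, testing without the filter, the name suffix as a covariate or its libraries left out, the replicate number as a block, a fit of the contrast's libraries alone, leaving out each replicate number, leaving out C57BL6/J water 0 h replicate 2 and, chosen after seeing the data, leaving out 6 libraries with kidney or adrenal transcripts. No libraries of a group agreed within sampling noise (lowest chi-square per degree of freedom 17.6).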

Additional observations from a re-analysis of the deposited data

Results flagged for a closer look

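In 5 of 156 groups checked (5 genes and the Hcn3 to Pklr ratio in 26 groups) the highest library lay far from the others for its group; chance gives about 1 in 20. Hcn3 had 16.6 CPM in BALB/c water 3 h replicate 3, with 6.23 to 8.86 CPM in the other 4 libraries, and it is part of the water level that the sugar contrasts at 3 h were set against. C57BL6/J water 3 h replicate 4 was far from the rest for both Clk2, at 89.7 CPM (29.3 to 43.6 in the others), and Fam189b, at 4.27 CPM (1.29 to 2.14 in the others). Fam189b also had 4.41 CPM in C57BL6/J sucrose 3 h replicate 2 (0.934 to 1.94 in the others). Scamp3 had 35.1 CPM in C57BL6/J sucrose 6 h replicate 4 (27.1 to 28.6 in the others). No group of Pklr held such a library.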

How the results depend on the processing

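Hcn3 passed the threshold with fructose and sucrose at 3 h and with sucrose at 6 h in 14 of 14 alternatives, and the ratio of Hcn3 to Pklr with fructose and sucrose at 3 h in 9 of 9. Clk2, Scamp3 and Fam189b were called with a sugar in none of 14. The changes listed below are those of Pklr, Hcn3 and their ratio with sugar, with water against 0 h and between strains, unless another contrast is named.
In the libraries without the name suffix, these log2 values no longer passed: Pklr with fructose (1.198) and sucrose (1.745) at 3 h, Hcn3 with glucose at 3 h (1.445), with fructose (1.553) and glucose (1.32) at 6 h and with water at 12 h (-1.137), and the ratio with glucose at 3 h (0.4339), fructose at 6 h (0.437) and sucrose at 6 h (0.4887); 2 uncalled values changed sign, Pklr with water at 6 h (0.1208) and the ratio between strains (-0.03835). With no filter on low counts Pklr with fructose at 3 h (1.129), Hcn3 with glucose at 6 h (1.405) and Hcn3 with water at 12 h (-1.002) no longer passed, and Hcn3 with water at 12 h also not in a fit of its libraries alone (-0.9946). Without the libraries holding kidney or adrenal transcripts, Hcn3 at 6 h with fructose (1.525) and glucose (1.194) did not pass.
Other settings added calls: at 6 h Pklr with DESeq2 (fructose 1.177, sucrose 1.313, glucose 1.242), in a fit of the contrast's libraries alone (1.174, 1.309 and 1.242) and with the suffix as a covariate (sucrose 1.341, glucose 1.28); Hcn3 with fructose at 12 h with DESeq2 (1.578); and the ratio with water against 0 h at 6 h (-0.5717) and 12 h (-0.7831) without C57BL6/J water 0 h replicate 2. The labels do not say what a replicate number shares. Of 1576 pairs of libraries with the same number, 714 had deviations correlated above 0.1 (median r 0.0829, and -0.0224 for other numbers), and 85 libraries (of 63 from BALB/c and 65 from C57BL6/J) were closest to their own number, a hint from the data that numbers share something. The replicate number as a block gave 2900 calls of all genes over the 9 sugar contrasts, called Pklr with sucrose at 6 h (1.208) and changed no other call of Pklr or Hcn3. The ratio test was not run in a paired form.
Leaving out each replicate number, or C57BL6/J water 0 h replicate 2 alone, gave these ranges where a call or sign changed: for Pklr, fructose 3 h 0.9925 to 1.418, sucrose 3 h 1.458 to 1.772, fructose 6 h 0.9953 to 1.417, sucrose 6 h 1.022 to 1.506, water 6 h -0.2934 to 0.131 and water 12 h -0.6396 to 1.818e-05; for Hcn3, glucose 3 h 1.422 to 1.772, fructose 6 h 1.53 to 1.905, glucose 6 h 1.182 to 1.602, water 12 h -1.065 to -0.7921 and the strain difference -0.1143 to 0.0003123; for the ratio, water 3 h -0.9652 to -0.7941, glucose 3 h 0.4458 to 0.723, fructose 6 h 0.4278 to 0.5467, sucrose 6 h 0.4268 to 0.6754, water 6 h -0.652 to -0.3033, water 12 h -0.8667 to -0.4931, glucose 12 h -0.1073 to 0.02564 and strain -0.006487 to 0.1039; and for r of Pklr with Hcn3, 0.859 to 0.919. Calls from 3 h to 12 h changed as well when a replicate number was left out. With fructose, Hcn3 and Scamp3 each kept their call in 3 of 5 cases. With glucose, Hcn3 kept it in 2 of 5 and Fam189b in 3 of 5. With sucrose, Pklr kept it in 4 of 5. The call of Scamp3 with water at 6 h against 0 h was kept in 1 of 5. Calls of all genes summed over the 9 sugar contrasts were 2224, 591 without the suffix libraries, and 980 to 1663 when a replicate number was left out. The cause of these shifts was not tested. Settings that leave out libraries also fit fewer of them.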
